A study of Mus musculus with 9 samples.

Results

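Macrophage lineage genes were followed across 3 groups of tumour-infiltrating leukocytes. The genes were Csf1r, Adgre1, Cd68, Lyz2, Maf, Spi1, Lyve1, Folr2 and Itgam, 9 of the 22136 genes in the files, and they were taken by name as core genes of macrophages. RNA was sequenced in bulk from CD45+ cells sorted out of tumours that YUMM 2.1, a mouse melanoma line, had formed under the skin of C57BL/6J mice. The mice had been given anti-B7-H3 (an antibody against the B7 family protein encoded by Cd276), anti-PD1 (an antibody against the inhibitory T cell receptor encoded by Pdcd1) or an IgG isotype control, starting when tumours measured 20 to 50 mm3. Each group had 3 libraries. All the groups carried tumours of the same single cell line, and a combination of antibodies named in the design was not analysed here. Age, sex, dose and duration were not given in the sources used here. Nothing in the labels says whether the libraries of a group came from separate mice or from pools, so p-values measure only the spread between these samples, which may be technical.

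Macrophages arise from monocytes recruited from blood or persist in tissues as resident cells. Their growth and survival depend on the receptor tyrosine kinase encoded by Csf1r, and the transcription factor PU.1, encoded by Spi1, sets up the myeloid programme in which Csf1r and Itgam are switched on. Tumours commonly hold macrophages of both origins, which take up debris and antibody-coated cells. Several of the 9 genes are shared with other leukocytes: Lyz2 and Itgam with monocytes and neutrophils, Spi1 with neutrophils and B cells, and Maf with T cells.

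Library totals ran from 14487012 to 31533106 estimated counts, so that a floor of 3 counts in a library lay between 0.0954 and 0.208 CPM. CPM are counts relative to the library total, which for the values of genes was scaled by TMM factors of 0.9 to 1.12. Ptprc, which encodes CD45 and so checks the sort, had between 1718 and 2913 CPM in the 9 libraries. IgG control 2 stood apart, with 1896 of the 13178 tested genes at 0, followed by anti-PD1 3 with 1248 and IgG control 3 with 822, against 224 to 308 in the other 6. Such libraries bear directly on genes of macrophages. Of 15 macrophage surface and complement markers, 7 were at 0 in IgG control 2, 4 in anti-PD1 3 and 2 in IgG control 3, and none in the other 6.

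Cd68, Lyz2 and Spi1 rose under anti-B7-H3 and under anti-PD1, each 3 of 3 libraries above every control. They were the 3 of 9 genes that passed edgeR's quasi-likelihood test (adjusted p at or under 0.05) in either comparison, where 0.827% of all tested genes passed as higher under anti-B7-H3 and 1.72% under anti-PD1. Csf1r, Adgre1, Itgam and Folr2 also lay above every control library in both antibody groups, but with wide spread among the controls, and did not pass. Arrangements without overlap in this direction made up 9.96% of tested genes for anti-B7-H3 and 9.99% for anti-PD1. Maf was the only one of the 8 tested genes with a negative fold change, which did not pass, and Lyve1 had too few counts to be tested. The members' median log2 fold change was 2.69 under anti-B7-H3 and 2.50 under anti-PD1, beside medians over all tested genes of 0.0226 for anti-B7-H3 and -0.0384 for anti-PD1. These counts and medians describe 8 genes of which Csf1r, Adgre1 and Folr2 could pass the filter on low values only through the antibody groups, and both comparisons share the same controls. In bulk RNA, fewer cells of a type and less RNA per cell cannot be told apart.

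**Figure D1:**
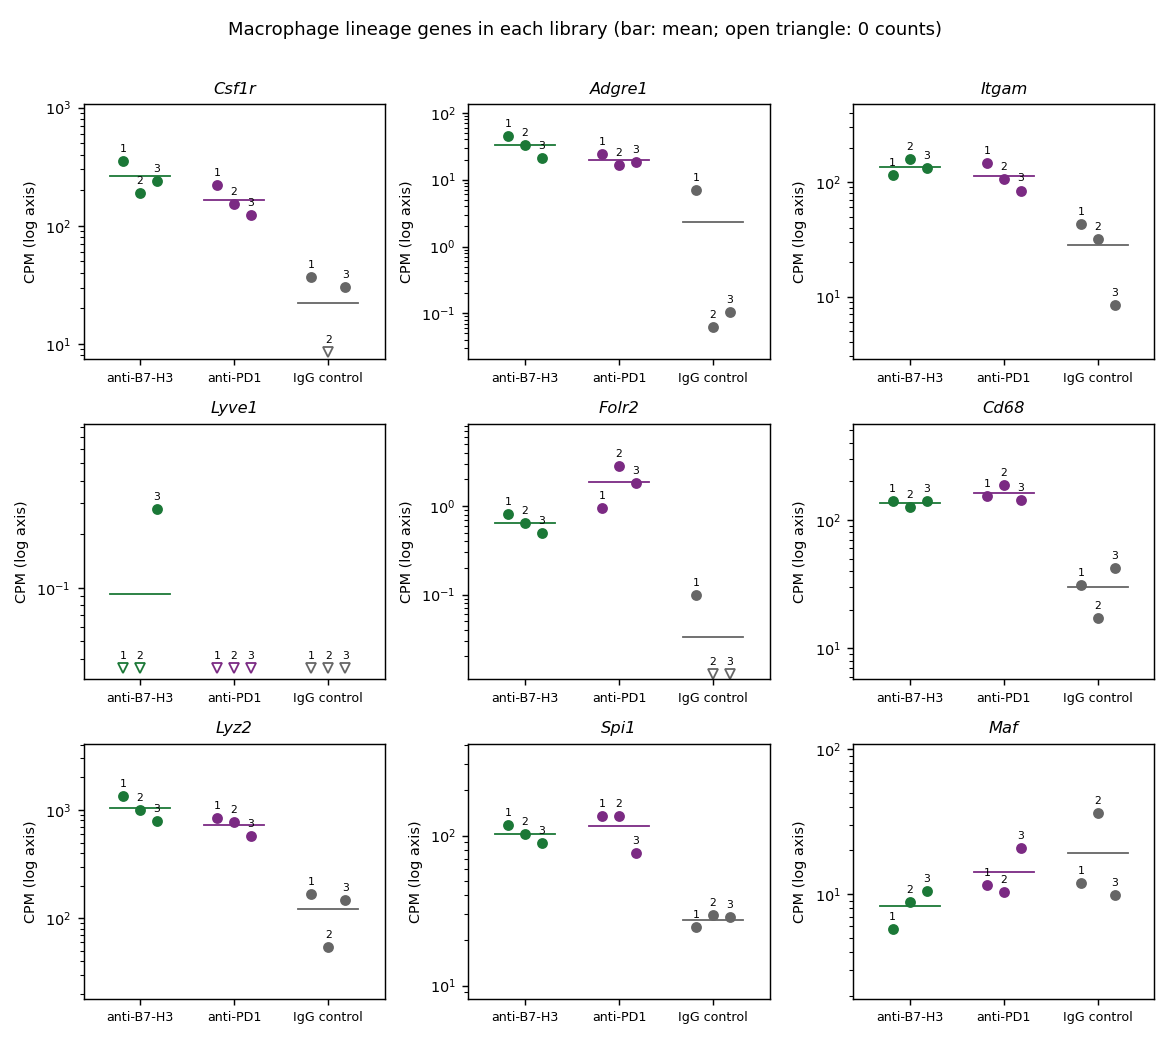
CPM of each macrophage lineage gene in every library (log axis, points numbered by replicate, bars for group means, open triangles at the lower edge for 0 counts). All 6 antibody libraries sit above the 3 controls for Csf1r, Adgre1, Itgam, Folr2, Cd68, Lyz2 and Spi1, while Maf overlaps and Lyve1 has counts in anti-B7-H3 3 alone.

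Csf1r (chromosome 18, 61100598 to 61132149, GRCm38) encodes the receptor for CSF1 and IL-34. It had 355, 190 and 241 CPM under anti-B7-H3, 223, 152 and 124 under anti-PD1, and 36.7, 0 and 30.2 in the IgG controls. Every antibody library lay well above the highest control, and IgG control 2 had 0 counts, where its depth allows up to 0.208 CPM. The log2 fold change was 3.55 ± 1.40 for anti-B7-H3 and 2.90 ± 1.36 for anti-PD1 (SE, n = 3 per group), neither past the test over all libraries (edgeR adjusted p = 0.535 and 0.513). Without IgG control 2 the value was 2.98 ± 0.34 for anti-B7-H3 and 2.34 ± 0.33 for anti-PD1, and both passed (edgeR adjusted p = 0.00244 and 0.00499). Over all 22 other settings tried, the adjusted p ran from 0.00244 to 0.869 for anti-B7-H3 and from 0.00499 to 0.743 for anti-PD1. Nearly all Csf1r counts, at least 98.68% in each library with any, fell on the full-length transcript Csf1r-201. Hmgxb3 overlaps Csf1r on the opposite strand, but none of the 31-base windows of the Csf1r coding sequence occurs in another gene.

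Adgre1 (chromosome 17, 57358691 to 57483527) encodes F4/80, the adhesion receptor by which mouse macrophages are commonly recognised. Its levels were 44.5, 32.8 and 21.4 CPM under anti-B7-H3, 24.4, 16.8 and 18.5 under anti-PD1, and 6.92, 0.0619 and 0.104 in the controls. The controls were uneven: IgG control 1 carried 138 counts, and IgG controls 2 and 3 had 1 and 2. The log2 fold changes of 3.79 ± 1.37 under anti-B7-H3 and 3.06 ± 1.33 under anti-PD1 did not pass (edgeR adjusted p = 0.453 and 0.452). Left without IgG control 1, the controls hold 3 counts, and both comparisons passed (edgeR adjusted p = 0.000965 and 0.000901). The CPM ratio was then 354 for anti-B7-H3, with a 95% counting interval of 121 to 1718, and 237 for anti-PD1, with an interval of 81 to 1151. Leaving out IgG control 2 or 3 instead gave log2 fold changes between 2.50 and 3.22 that did not pass (edgeR adjusted p = 0.43 to 0.667). The adjusted p ran up to 0.824 for anti-B7-H3 and 0.743 for anti-PD1 among the other settings.

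Itgam (chromosome 7, 128062640 to 128118491) encodes CD11b, the alpha chain of the integrin Mac-1, carried by macrophages, monocytes, neutrophils and NK cells. It had 116, 159 and 132 CPM under anti-B7-H3, 146, 107 and 84.4 under anti-PD1, and 43.4, 32.1 and 8.51 in the controls. All antibody libraries were above the controls, and IgG control 3 was the lowest library of the 9. The log2 fold change was 2.28 ± 0.49 under anti-B7-H3 and 2.01 ± 0.48 under anti-PD1, just short of the test (edgeR adjusted p = 0.0787 and 0.0812). Without IgG control 3 the value was 1.84 ± 0.29 for anti-B7-H3 and 1.57 ± 0.28 for anti-PD1, and both passed (edgeR adjusted p = 0.0224 and 0.0284). DESeq2 and limma-voom also called both over all libraries, and the adjusted p ran from 9.29e-05 to 0.291 for anti-B7-H3 and from 0.000517 to 0.263 for anti-PD1 over the 22 other settings. A second gene model, Gm49368, overlaps Itgam on the same strand and holds 92.4% of the 31-base windows of its coding sequence, so counts may be split between them. Gm49368 held 5.19, 10.5 and 6.1 CPM under anti-B7-H3, 16, 7.84 and 20.8 under anti-PD1, and 1.45, 0 and 0.467 in the controls, so more was assigned to Itgam than to Gm49368 in every library. Within Itgam, the lengths of transcripts Itgam-201 and Itgam-203 differ by 3 bases, and Itgam-201 took between 36.4% and 74.8% of the gene's counts in the antibody libraries.

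Cd68 (chromosome 11, 69664213 to 69666153) encodes a heavily glycosylated protein of the lysosomal membrane. Its levels were 141, 126 and 140 CPM under anti-B7-H3, 155, 186 and 144 under anti-PD1, and 30.9, 17.3 and 42.4 in the controls. Both antibody groups were tight and stood clear of the controls. The log2 fold change was 2.16 ± 0.29 for anti-B7-H3 and 2.42 ± 0.29 for anti-PD1 (edgeR adjusted p = 0.00615 and 0.00237). Without IgG control 2 it was 1.91 ± 0.22 for anti-B7-H3 and 2.17 ± 0.23 for anti-PD1, and both passed. The anti-B7-H3 call was lost by a narrow margin when the fit left out the anti-PD1 libraries (2.17, edgeR adjusted p = 0.0502, the highest of 22 other settings, the lowest being 2.73e-10).

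Lyz2 (chromosome 10, 117277331 to 117282321), the secreted lysozyme of macrophages, monocytes and neutrophils, was the most abundant of the 9 genes in every group. It had 1354, 1005 and 792 CPM under anti-B7-H3, 847, 766 and 573 under anti-PD1, and 166, 54 and 147 in the controls. The least of the antibody libraries, anti-PD1 3, was still well above the highest control. The log2 fold change of 3.10 ± 0.40 under anti-B7-H3 and of 2.58 ± 0.39 under anti-PD1 passed the test (edgeR adjusted p = 0.0051 and 0.00726), and without IgG control 2 the value was 2.76 ± 0.29 for anti-B7-H3 and 2.25 ± 0.28 for anti-PD1, both past the test. Its paralog Lyz1, which is known from Paneth cells of the gut, holds 38.4% of the 31-base windows of the Lyz2 coding sequence, so some reads could be split. Lyz1 held at most 5.95 CPM in a library, a small amount beside Lyz2.

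The promoters of Cd68, Lyz2 and Itgam are shown because these genes lay high together and because the factors PU.1 and MAF, encoded by Spi1 and Maf, are themselves among the 9. Each runs from 250 bases before to 50 bases after the RefSeq start on GRCm38.p6, 5′ to 3′ on the strand of the gene, with capitals marking the PU.1 core GAGGAA or the MAF half-site TGCTGA on either strand (TTCCTC and TCAGCA when read on the other).
Cd68 promoter, chr11:69666121-69666420, minus strand: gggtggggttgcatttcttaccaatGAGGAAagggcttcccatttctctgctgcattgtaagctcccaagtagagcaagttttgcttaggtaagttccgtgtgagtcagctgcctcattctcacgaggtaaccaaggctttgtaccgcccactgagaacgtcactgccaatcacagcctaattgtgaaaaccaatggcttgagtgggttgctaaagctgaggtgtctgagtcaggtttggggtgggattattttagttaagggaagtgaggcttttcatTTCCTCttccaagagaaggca
Lyz2 promoter, chr10:117282223-117282522, minus strand: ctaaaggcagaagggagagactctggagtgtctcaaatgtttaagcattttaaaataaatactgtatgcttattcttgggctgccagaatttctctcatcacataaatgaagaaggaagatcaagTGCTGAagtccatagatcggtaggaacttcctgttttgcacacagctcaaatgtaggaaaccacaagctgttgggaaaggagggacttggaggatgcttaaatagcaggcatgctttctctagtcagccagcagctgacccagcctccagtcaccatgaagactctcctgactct
Itgam promoter, chr7:128062390-128062689, plus strand: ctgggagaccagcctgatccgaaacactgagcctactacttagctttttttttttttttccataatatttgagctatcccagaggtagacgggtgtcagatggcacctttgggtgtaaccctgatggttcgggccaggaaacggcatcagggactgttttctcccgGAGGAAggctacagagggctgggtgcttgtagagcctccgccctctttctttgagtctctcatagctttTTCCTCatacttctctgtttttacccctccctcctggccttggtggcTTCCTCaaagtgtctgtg
Promoter windows were examined for 4 of the 9 genes, Cd68, Lyz2, Itgam and Folr2. The promoters of the other members, Csf1r among them, were not examined, so nothing is said here of their motifs. The Itgam window held 3 PU.1 cores, 1 of them 84 bases and another 15 bases upstream of the start, and the Cd68 window held 2, the farther 225 bases upstream. The Lyz2 window held no PU.1 core and 1 MAF half-site, 125 bases upstream. Both windows of Folr2, which has 2 annotated starts, held 1 MAF half-site and no PU.1 core. The 2 motifs did not overlap in these windows, and such short words are common: 28.3% of 32817 promoters of this length hold the PU.1 core and 19.5% the MAF half-site. A match is a description of the letters and not evidence of binding.

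Spi1 (chromosome 2, 91082390 to 91115756) encodes PU.1. It had 117, 103 and 89.3 CPM under anti-B7-H3, 135, 136 and 76 under anti-PD1, and 24.5, 29.6 and 28.6 in the controls. The controls lay close together here, IgG control 2 among them, which had no count of Csf1r and 1 of Adgre1. Spi1 rose by 1.90 ± 0.25 under anti-B7-H3 and by 2.07 ± 0.26 under anti-PD1 on the log2 scale (edgeR adjusted p = 0.00615 and 0.0025), and without IgG control 2 by 1.97 ± 0.29 for anti-B7-H3 and 2.15 ± 0.29 for anti-PD1.

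Maf (chromosome 8, 115682942 to 115707794) encodes c-MAF, a factor of resident-type macrophages and of several kinds of helper T cell. Its levels were 5.71, 8.76 and 10.5 CPM under anti-B7-H3, 11.5, 10.4 and 20.9 under anti-PD1, and 11.9, 36 and 9.81 in the controls. The groups overlapped, and the highest value of all belonged to IgG control 2. The log2 fold change was -1.20 ± 0.54 under anti-B7-H3 and -0.43 ± 0.53 under anti-PD1 (edgeR adjusted p = 0.56 and 0.834). Without IgG control 2 the anti-B7-H3 value was -0.36 and the anti-PD1 value turned to 0.42. In every library at least 86.55% of its counts fell on Maf-201. The 10 T cell markers summed to 4436 to 6456 CPM under anti-B7-H3, 4574 to 5761 under anti-PD1 and 5611 to 7756 in the controls. None passed the edgeR test in either comparison, with 3 for anti-B7-H3 and 1 for anti-PD1 at an unadjusted p under 0.05 and 0 by DESeq2 and limma-voom. Of all tested genes, 8.81% for anti-B7-H3 and 10.9% for anti-PD1 had such an unadjusted edgeR p, which applies to the lists below too. Fold changes were positive for 1 of the 10 markers under anti-B7-H3 (median log2 -0.38) and for 0 under anti-PD1 (median -0.44). The part of T cells in the level of Maf was not tested.

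**Figure D2:**
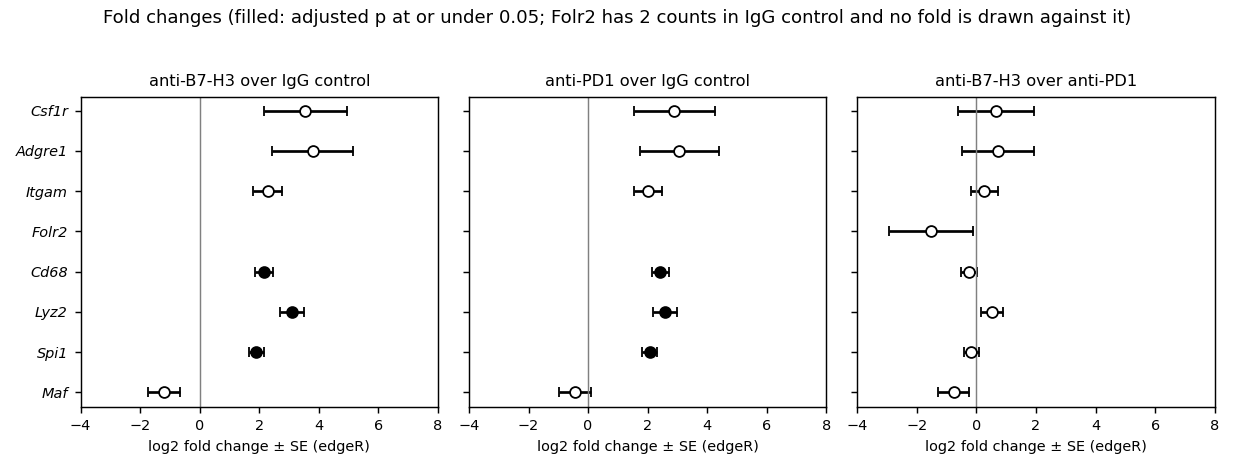
Log2 fold change ± SE from edgeR for the tested genes in the 3 comparisons, with filled points where the adjusted p is at or under 0.05 and no point for Folr2 against IgG control, where it had 2 counts. Cd68, Lyz2 and Spi1 are filled against IgG control in both antibody groups, Csf1r and Adgre1 have the widest errors of the genes drawn there, and no point is filled for anti-B7-H3 over anti-PD1.

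Folr2 and Lyve1 mark resident, perivascular-type macrophages. Folr2 (chromosome 7, 101839988 to 101857194), a folate receptor, was scarce, at 11, 19 and 16 counts under anti-B7-H3, 28, 76 and 44 under anti-PD1, and 2, 0 and 0 in the controls. On the CPM scale this was 0.816, 0.64 and 0.493 under anti-B7-H3, 0.962, 2.81 and 1.84 under anti-PD1, and 0.1, 0 and 0 in the controls, without overlap between any of the 3 groups. The ratio of pooled CPM over the controls was 16.8 for anti-B7-H3, with a 95% counting interval of 4.41 to 143, and 51.2 for anti-PD1, with an interval of 13.9 to 426. The test between libraries did not pass for either (edgeR adjusted p = 0.51 and 0.205), while DESeq2 called the anti-PD1 comparison (adjusted p = 0.00912, the lowest of 21 other settings, the highest being 0.511). Folr2 shares 66.9% of its 31-base coding windows with Gm10602, an annotated antisense gene that is not among those used here, and the kit is not stated to mark strand. Lyve1 (chromosome 7, 110850607 to 110863239), a hyaluronan receptor also made by lymphatic endothelium, had 9 counts in anti-B7-H3 3, or 0.277 CPM, and 0 in the other 8 libraries. Pooled over the anti-B7-H3 group, these 9 counts came to 0.119 CPM, 2.2 times a floor of 3 counts over the controls. That value rests on 1 library, takes the 9 counts without counting error and gives no lower bound for the group. The 11 lymphatic and blood endothelial markers summed to 106 to 107 CPM under anti-B7-H3, 43.5 to 85 under anti-PD1 and 72.6 to 86.3 in the controls. Of these, Prox1, Ccl21a and Emcn, named after their values were seen, had 0 counts in all anti-B7-H3 libraries. The rest of the list had counts there. In all controls Ccl21a, Cdh5, Emcn and Mmrn1 had 0. The 4 tested genes of this list all had positive fold changes for anti-B7-H3 over IgG control (median log2 1.96), and edgeR called 0. A lymphatic source of the Lyve1 counts was not tested.

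**Figure D3:**
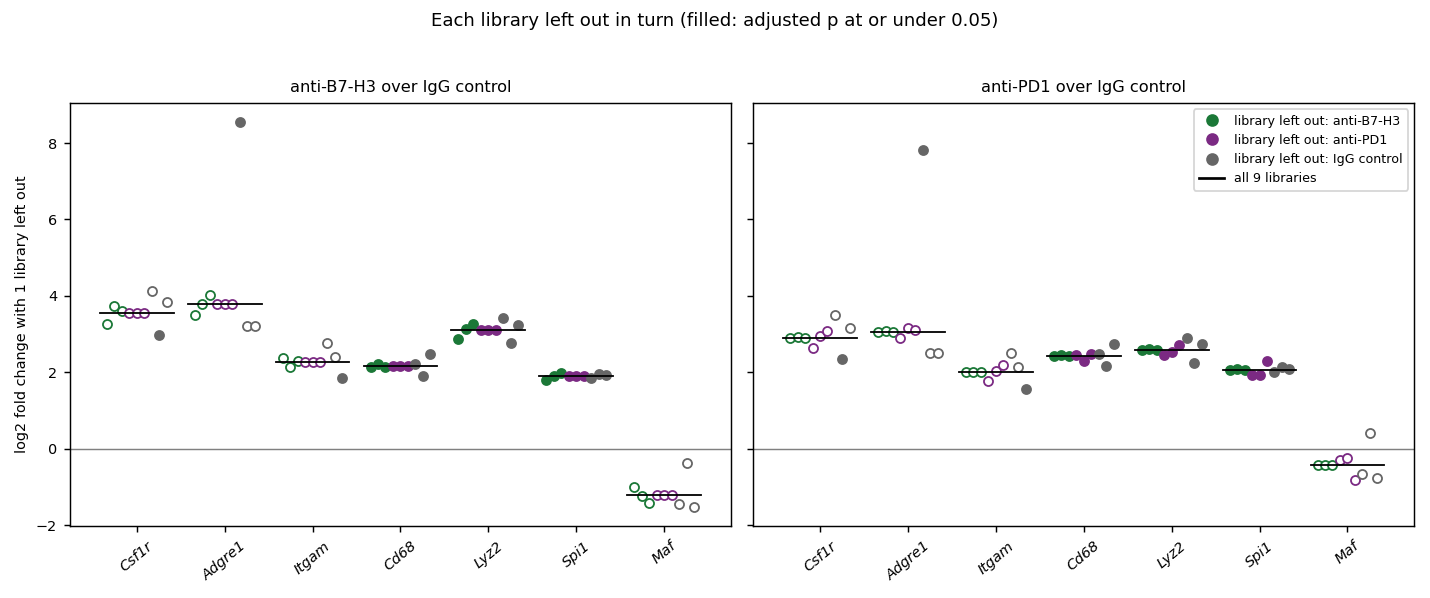
Log2 fold changes over IgG control with each of the 9 libraries left out in turn (points coloured by the group of the library left out, filled where the adjusted p is at or under 0.05, line for all 9 libraries). Cd68, Lyz2 and Spi1 stay filled throughout, while Csf1r, Adgre1 and Itgam are each filled when 1 particular IgG control library is missing.

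Between the antibodies, no difference in a macrophage lineage gene passed the test. For anti-B7-H3 over anti-PD1, 0 of the 8 tested genes passed edgeR's quasi-likelihood test, 0 had an unadjusted p under 0.05, and 0 passed by DESeq2 or limma-voom. Of all tested genes, 0% passed edgeR's test and 3.23% had an unadjusted p under 0.05. All of them had an adjusted p of 1, which does not show that the antibodies act alike. Nominal 95% intervals were narrower for Spi1, at -0.17 (-0.65 to 0.31), and for Cd68, at -0.25 (-0.80 to 0.29). They were wider for Csf1r, at 0.66 (-1.82 to 3.14), and Adgre1, at 0.72 (-1.66 to 3.11). Lyz2 differed by 0.53 (-0.19 to 1.25), Itgam by 0.27 (-0.64 to 1.18) and Maf by -0.77 (-1.82 to 0.28). Cd68 and Folr2 had all anti-B7-H3 libraries below all anti-PD1 libraries, an arrangement that 6.4% of tested genes show, and no tested member had the opposite one, shown by 7.13%. For Folr2 the pooled ratio was 0.329 (95% counting interval 0.231 to 0.461), and the fold change with the spread between libraries was -1.52 (-4.30 to 1.25).

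The levels of different genes were compared in TPM, the deposited unit of transcript abundance that allows for coding length. Under anti-B7-H3 the order was Lyz2 at 1933 ± 207 TPM, Spi1 at 97.5 ± 15.4, Cd68 at 85.1 ± 16.3, Csf1r at 51.1 ± 7.53, Itgam at 21.4 ± 5.27, Adgre1 at 6.38 ± 0.833, Maf at 4.51 ± 2.01, Folr2 at 0.685 ± 0.276 and Lyve1 at 0.0691 ± 0.12 (SD, n = 3). The ranges of Spi1 and Cd68 overlapped, as did those of Adgre1 and Maf, and every other neighbouring pair was separated. Under anti-PD1 Lyz2 stood at 1364 ± 303 TPM, Spi1 at 107 ± 31.3, Cd68 at 101 ± 11, Csf1r at 34.4 ± 8.31 and Itgam at 17.9 ± 4.77. Below these came Maf at 7.49 ± 3.28 and Adgre1 at 4.09 ± 1.19, in the opposite order to anti-B7-H3 but overlapping in both groups, then Folr2 at 1.62 ± 0.775 and Lyve1 at 0. In the controls the order was Lyz2 at 238 ± 122 TPM, Spi1 at 24.4 ± 3.32, Cd68 at 19.6 ± 6.25, Maf at 11.2 ± 9.09, Itgam at 4.99 ± 3.56, Csf1r at 4.31 ± 4.13, Adgre1 at 0.555 ± 0.935 and Folr2 at 0.0349 ± 0.0604. There Lyz2 alone was separated from the next gene, and the mean of Maf lay above those of Itgam, Csf1r and Adgre1. That place of Maf rested on IgG control 2: without it Csf1r averaged 6.47 TPM, Maf 5.99 and Itgam 4.66, with overlapping ranges.

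To see whether the genes changed in proportion, each was divided by Cd68 in the same library. Csf1r over Cd68 was 2.53, 1.51 and 1.72 under anti-B7-H3, 1.44, 0.817 and 0.858 under anti-PD1, and 1.19, 0 and 0.711 in the controls. Lyz2 over Cd68 was 9.63, 7.95 and 5.66 under anti-B7-H3, 5.46, 4.12 and 3.97 under anti-PD1, and 5.35, 3.11 and 3.46 in the controls. For both genes each anti-B7-H3 library lay above every anti-PD1 and control library, while anti-PD1 and control libraries overlapped. Ratios higher in this way made up 17.6% of tested genes for anti-B7-H3 over anti-PD1 and 1.34% for anti-B7-H3 over IgG control.

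Spi1, Itgam and Adgre1 had ratios to Cd68 that overlapped in all 3 comparisons, with group means for Spi1 of 0.759 ± 0.105 under anti-B7-H3, 0.709 ± 0.173 under anti-PD1 and 1.06 ± 0.568 in the controls (SD, n = 3). Folr2 over Cd68 was highest under anti-PD1 and lowest in the controls, without overlap. Such higher ratios over IgG control made up 1.34% of tested genes for anti-B7-H3 and 1.05% for anti-PD1, and lower ones for anti-B7-H3 over anti-PD1 made up 1.7%. Maf over Cd68 was lower in every antibody library, at 0.0406 to 0.0751 under anti-B7-H3 and 0.0558 to 0.145 under anti-PD1, against 0.231 to 2.08 in the controls. Most tested genes do the same, 72.6% for anti-B7-H3 and 73.8% for anti-PD1, since Cd68 itself rose. With 3 libraries against 3, the exact two-sided permutation test cannot go below 0.1, and the separated ratios all reached that value (adjusted p = 0.233 over 21 ratios).

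**Figure D4:**
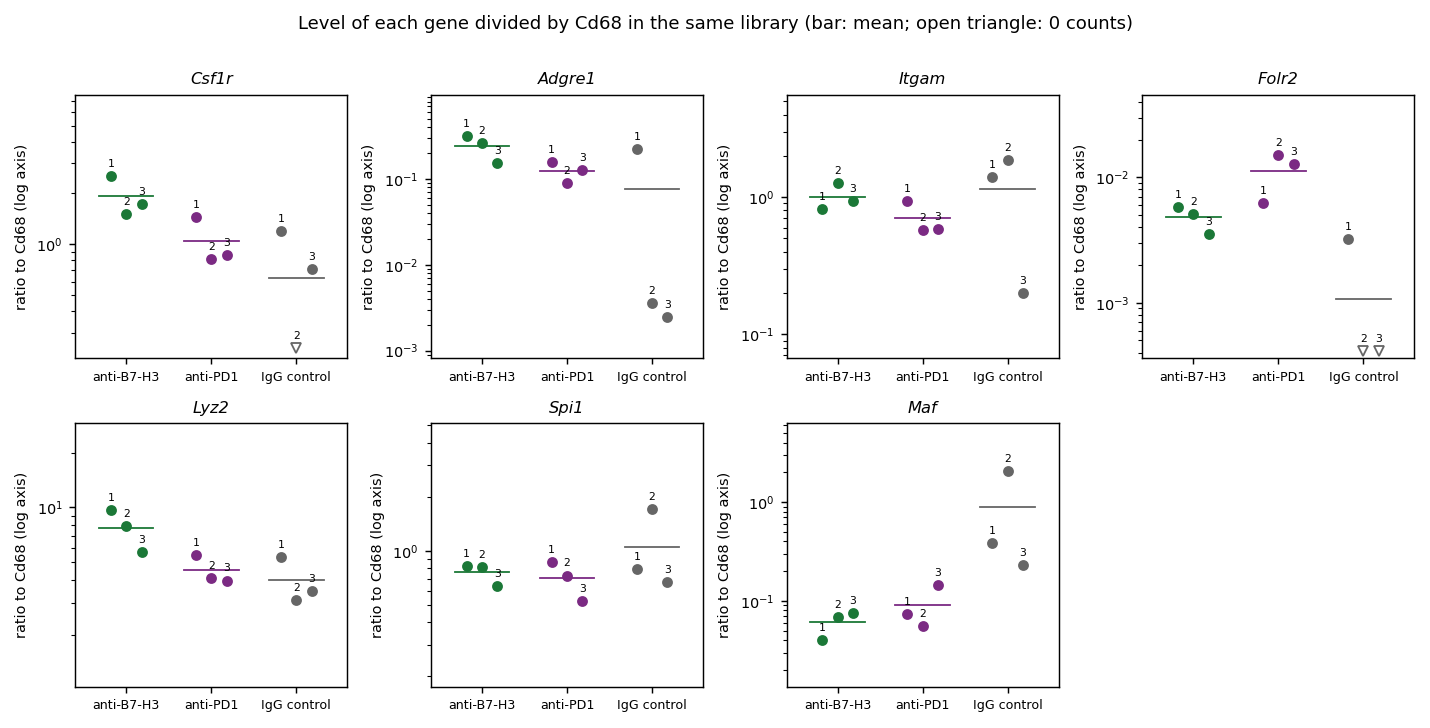
CPM of each gene divided by the CPM of Cd68 in the same library (log axis, points numbered by replicate, bars for group means, open triangles for 0 counts). Csf1r and Lyz2 are higher in all anti-B7-H3 libraries than in the others, Folr2 is highest under anti-PD1, and Maf is lower in all antibody libraries than in the controls.

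The profiles of the genes over the 9 libraries were compared by the root-mean-square difference of centred log2 CPM, where a small value means a similar profile. Among the members, Cd68 and Spi1 were the most alike at 0.443, followed by Cd68 and Lyz2 at 0.51. Csf1r and Adgre1, the genes with the most uneven controls, were 1.94 apart, and Maf was at least 1.43 from every other member. Among 9920 genes of at least 5 CPM on average, Spi1 was nearest to H2-DMb1 at 0.144, a chaperone subunit of MHC class II loading, then to Ly86 at 0.249 and Ctsh at 0.257. Cd68 was nearest to Olfm1 at 0.224, the cathepsin gene Ctsl at 0.232 and Csf2ra at 0.237, and Lyz2 to Tgfbi at 0.279, Emilin2 at 0.312 and Sirpa at 0.32. Csf1r had no close neighbour, with Chil3 at 0.77, Ms4a4a at 0.772 and F13a1 at 0.79. Adgre1 was nearest to Clec4a2 at 0.464, Pla2g4a at 0.465 and Fam20c at 0.509. Itgam was nearest to Nfe2 at 0.388, Cebpd at 0.39 and Stom at 0.398, and Folr2 to Dcstamp at 0.4, Il1rn at 0.53 and Arhgef10l at 0.567. Maf was nearest to Dst at 0.231, Zfp994 at 0.259 and Hmgn2 at 0.273. These likenesses describe profiles that share 9 libraries, with their zeros, and were not tested.

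Among 10 tested genes of CSF1 receptor signalling and related growth factor receptors, 4 rose under anti-B7-H3 and the same 4 under anti-PD1, and none was called lower. They were Sirpa, a phagocyte receptor for CD47, Csf2ra and Csf2rb, the chains of the GM-CSF receptor, and Csf3r, the receptor for G-CSF. None of these is a ligand of Csf1r. Csf2ra rose by 2.26 ± 0.43 under anti-B7-H3 and by 2.48 ± 0.43 under anti-PD1 (edgeR adjusted p = 0.0346 and 0.0152), close to the changes of Cd68. Csf1, the ligand gene, had 19.2 ± 7.29 CPM under anti-B7-H3, 38.2 ± 7.71 under anti-PD1 and 12.5 ± 7.38 in the controls and did not pass (edgeR adjusted p = 0.786 and 0.132). The list's median log2 fold change was 1.11 under anti-B7-H3 and 1.43 under anti-PD1. Without IgG control 2, 2 genes of the list passed under anti-B7-H3 and 4 under anti-PD1, and limma-voom called 1 for anti-B7-H3 and 3 for anti-PD1.

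Of 11 listed macrophage transcription factors other than Spi1 and Maf, 2 rose under anti-B7-H3 and 3 under anti-PD1, with medians of 1.05 for anti-B7-H3 and 1.48 for anti-PD1. Without IgG control 2 there were 2 calls in each, and limma-voom called 1 for anti-B7-H3 and 2 for anti-PD1. Cebpb, a partner of PU.1 at myeloid genes, averaged 543 ± 173 CPM under anti-B7-H3, 807 ± 140 under anti-PD1 and 117 ± 22.5 in the controls (edgeR adjusted p = 0.00383 and 0.000645). Klf4 was called in both, and Bhlhe40 under anti-PD1 only narrowly (1.32 ± 0.29, edgeR adjusted p = 0.0498, and 0.72 ± 0.29 under anti-B7-H3, adjusted p = 0.491). Irf8, needed for monocyte and dendritic cell development, was at 0.59 ± 0.20 for anti-B7-H3 and 0.51 ± 0.20 for anti-PD1, neither called (edgeR adjusted p = 0.384 and 0.386).

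All 15 macrophage surface and complement markers were tested, and their summed level was 696 to 1138 CPM under anti-B7-H3, 964 to 1205 under anti-PD1 and 84.4 to 146 in the controls. Apoe, C1qa, C1qb and C1qc rose in both antibody groups, and under anti-PD1 Cd14, a receptor for lipopolysaccharide, passed as well, making 4 and 5 calls. The medians were 3.39 under anti-B7-H3 and 3.68 under anti-PD1. Genes at 0 in IgG control 2, 7 of these 15, could not pass the filter on low values from the controls alone. That favours high medians, here and in the other lists with such genes. With IgG control 2 left out there were 7 calls in each. DESeq2 called 9 in each, and limma-voom 2 for anti-B7-H3 and 4 for anti-PD1. C1qa, a chain of the complement recogniser C1q made mainly by macrophages, averaged 62.8 ± 33.3 CPM under anti-B7-H3, 69.3 ± 23.5 under anti-PD1 and 6.61 ± 2.93 in the controls (edgeR adjusted p = 0.0118 and 0.00609). Of 14 genes of resident-type macrophages, the class of Lyve1 and Folr2, 11 were tested and 2 rose in both groups, the mannose receptor Mrc1 and the chemokine Ccl24, with medians of 3.29 for anti-B7-H3 and 2.46 for anti-PD1. Of this list, 1 gene passed in each comparison without IgG control 2, and 1 by limma-voom. Mrc1 averaged 37 ± 6.48 CPM under anti-B7-H3, 34.5 ± 19.9 under anti-PD1 and 1.76 ± 1.96 in the controls (edgeR adjusted p = 0.0326 and 0.0253). Per coding length its level was 4.42 ± 1.41 TPM under anti-B7-H3 and 4.04 ± 2.21 under anti-PD1, where Folr2 had 0.685 ± 0.276 and 1.62 ± 0.775 TPM in the same groups.

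No gene on the lists of beta2 integrins and family relatives was called by edgeR. None of the 4 beta2 integrin genes other than Itgam passed the edgeR test under anti-B7-H3 or anti-PD1, 1 in each had an unadjusted p under 0.05, DESeq2 called 1 for anti-B7-H3 and 0 for anti-PD1, and limma-voom 0. Itgb2, the beta chain that pairs with CD11b, was at 696 ± 74 CPM under anti-B7-H3, 688 ± 95.1 under anti-PD1 and 649 ± 151 in the controls (edgeR adjusted p = 0.952 and 0.932). Itgax, encoding CD11c, was at 152 ± 39 CPM under anti-B7-H3, 111 ± 26.6 under anti-PD1 and 51.1 ± 30.9 in the controls (edgeR adjusted p = 0.257 and 0.388). Of 12 tested relatives of the members, none passed in edgeR, 3 had an unadjusted p under 0.05 in each comparison, DESeq2 called 1 in each and limma-voom 0. Adgre4, a paralog of Adgre1, averaged 10.3 ± 1.8 CPM under anti-B7-H3, 7.69 ± 8.25 under anti-PD1 and 0.134 ± 0.232 in the controls (edgeR adjusted p = 0.0876 and 0.0682). Adgre5, another paralog that T cells also express, had 575 ± 68.9 CPM under anti-B7-H3, 560 ± 62.5 under anti-PD1 and 484 ± 162 in the controls (edgeR adjusted p = 0.868 and 0.827). For anti-B7-H3 over anti-PD1, edgeR called 0 genes in each of these lists.

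Markers of other cells moved beside the members. Of 12 neutrophil markers, 10 were tested, and 4 rose under anti-B7-H3 and 5 under anti-PD1, S100a8, S100a9, Csf3r and G0s2 in both and Cxcr2, named after its values were seen, under anti-PD1. There were 5 calls for anti-B7-H3 and 7 for anti-PD1 without IgG control 2, and limma-voom made 1 for anti-B7-H3 and 4 for anti-PD1. Their summed level was 329 to 545 CPM under anti-B7-H3, 762 to 1017 under anti-PD1 and 99.5 to 128 in the controls. Lyz2 and Itgam averaged higher under anti-B7-H3 than under anti-PD1, by differences that did not pass the test. The part of neutrophils in the levels of these 2 genes was not tested. Ly6g, a defining neutrophil gene looked up after the other values were seen, averaged 0.283 ± 0.181 CPM under anti-B7-H3, 0.726 ± 0.838 under anti-PD1 and 0.0507 ± 0.0501 in the controls. Of 9 classical monocyte markers, 1 rose in each comparison, Hp, and the sums were 2018 to 3045 CPM under anti-B7-H3, 1848 to 2946 under anti-PD1 and 859 to 1516 in the controls. DESeq2 called 3 monocyte markers in each comparison, as did edgeR without IgG control 2. B cell markers, relevant to Spi1, summed to 62.5 to 534 CPM under anti-B7-H3, 47.2 to 144 under anti-PD1 and 28.5 to 92.6 in the controls, with 0 of 8 called by edgeR in either comparison (for anti-B7-H3 1 at an unadjusted p under 0.05 and 1 by DESeq2, for anti-PD1 0 by both, and 0 by limma-voom).

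NK cell markers, relevant to Itgam, summed to 1851 to 2518 CPM under anti-B7-H3, 1468 to 2038 under anti-PD1 and 484 to 1687 in the controls, the lowest being IgG control 2. All 8 had positive fold changes in both comparisons, and edgeR, DESeq2 and limma-voom called 0. An unadjusted edgeR p under 0.05 was reached by 4 for anti-B7-H3 and 0 for anti-PD1, beside 8.81% and 10.9% of all tested genes. Sums of dendritic cell markers overlapped between the groups, at 502 to 644 CPM under anti-B7-H3, 474 to 655 under anti-PD1 and 506 to 643 in the controls. Their median log2 fold change was 0.03 for anti-B7-H3 and 1.17 for anti-PD1. EdgeR and limma-voom called 0 of 10, DESeq2 called 2 in each comparison, and 3 and 4 had an unadjusted edgeR p under 0.05. Immediate-early genes also respond to dissociation of tissue. They summed to 10543 to 11618 CPM under anti-B7-H3, 11134 to 13452 under anti-PD1 and 4831 to 5783 in the controls. The main edgeR fit called 5 of 10 higher for anti-B7-H3 and 6 for anti-PD1, with Atf3, Fos, Nr4a1 and Zfp36 among both. Without IgG control 2 edgeR called 5 and 7, and without both IgG control 2 and anti-PD1 3 it called 2 and 5. DESeq2 called 9 in each comparison and limma-voom 7 in each. Of cells that the sort should remove, fibroblast markers summed to 9.67 to 14.2 CPM under anti-B7-H3, 13.3 to 29.7 under anti-PD1 and 0.495 to 1.45 in the controls, and melanoma markers to at most 14.1 CPM in any library. Erythroid markers summed to 6.75 to 11.2 CPM under anti-B7-H3, 2.03 to 30.2 under anti-PD1 and 7.49 to 435 in the controls. Of their 5 tested genes, 0 had a positive fold change in either comparison, and edgeR called 0. The part of these cells and responses in the levels of the members was not tested.

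**Figure D5:**
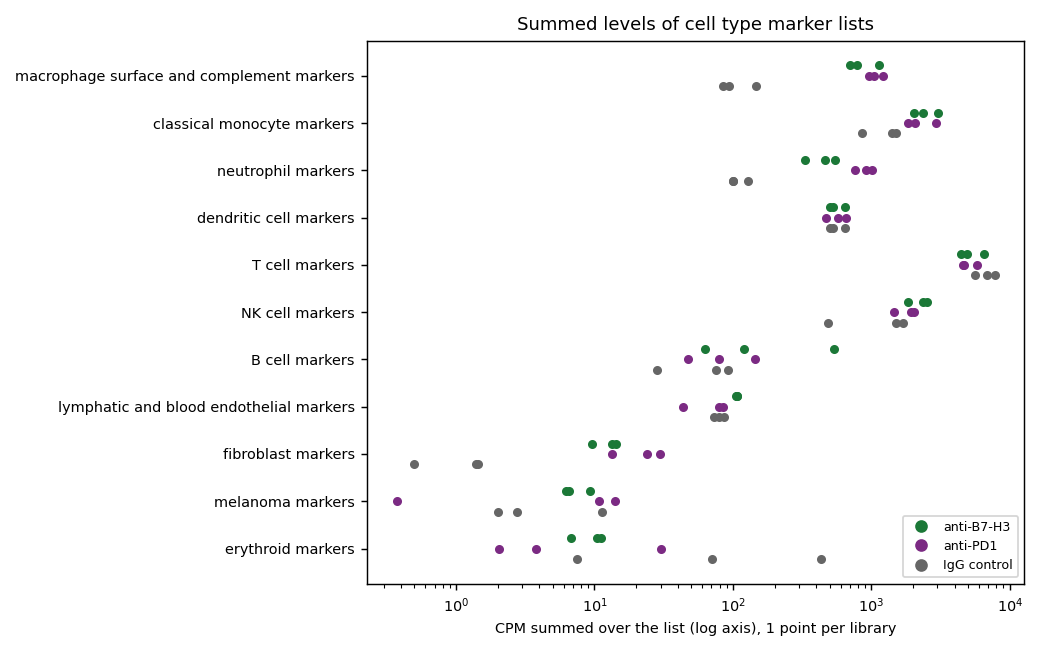
Summed CPM of marker lists in each library (log axis, groups coloured as in the legend). Macrophage, monocyte, neutrophil and fibroblast sums are higher in the antibody groups than in the IgG controls, neutrophil sums are highest under anti-PD1, and T cell and dendritic cell sums overlap.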

How the data were processed

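Each deposited file gives estimated counts (not normalised), TPM and lengths of 58083 transcripts, per the file headers. Per the labels' protocols, RNA of integrity number 7.0 or above was amplified with SMART-Seq v4, depleted of ribosomal RNA and made into Nextera XT libraries. The submitters' processing notes name FastQC 0.11.8 and GRCm38. The quantification tool is not given in the sources used here. The deposited TPM values were used to compare genes. Of the lengths, 87.3% are multiples of 3, so they are coding lengths.

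GENCODE M21 matched 57409 transcripts (57105 with the same version), and 674, holding 0.236% to 0.547% of counts, were left out. Deposited estimated counts were added up per gene and rounded. All 9 libraries entered 1 fit in edgeR 4.0.16 (R 4.3.3) with TMM factors, filterByExpr, a mean per group and robust quasi-likelihood dispersions. P-values were adjusted by Benjamini and Hochberg over 13178 genes. The SE is the log2 fold change divided by the square root of F, and intervals on fold changes are 1.96 SE either side. With so few libraries these nominal 95% intervals are too short. For Csf1r under anti-PD1 the interval over IgG control was 0.23 to 5.56, with an unadjusted edgeR p of 0.0717. Ratios to Cd68 were compared by exact permutation over libraries. Ratios of pooled counts have 95% exact intervals, which like the floors cover counting error only, since PCR reads carry no molecular identifiers. Likeness used log2 CPM with a prior count of 2. On simulated counts for anti-B7-H3 over IgG control (12777 genes, 200 changed), the fit recovered 6%, 46%, 58% and 72% of 50 genes each changed 2, 4, 8 and 16-fold, with 3 false calls.

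The members and lists were chosen with earlier results of these data known. 1 gene of the transcription factor list is not reported here. Named genes are the members, up to 4 tested genes of each list with the smallest p in a comparison, the 3 nearest genes by likeness, relatives of the members and Ptprc. Other settings were DESeq2 1.42.0, limma-voom (limma 3.58.1) with quality weights, other scalings and filters, length-scaled TPM, only the libraries compared, non-robust dispersions, a replicate block, the table without its 20 most abundant genes and each library left out. Leaving out IgG control 2 with anti-PD1 3 was chosen after seeing the data. Promoters came from RefSeq on GRCm38.p6.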

Additional observations from a re-analysis of the deposited data

How the results depend on the processing

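Among 22 other settings, Csf1r, Adgre1 and Itgam came to pass without IgG control 2, 1 and 3 in that order, as given above, and Itgam also by DESeq2 and limma-voom. The number of members called ran from 3 to 4 for anti-B7-H3 and from 3 to 4 for anti-PD1 over IgG control with each library left out, and was 0 throughout for anti-B7-H3 over anti-PD1. DESeq2 called 5 with anti-PD1. For Maf the anti-PD1 value of -0.43 became 0.42 without IgG control 2 and 0.01 without both IgG control 2 and anti-PD1 3, where the cause was not tested. It ran from -0.81 to 0.42 with each library left out. Of the values for single genes, 508 kept direction and side of the threshold, 13 came to pass, 1 no longer passed and 2 turned. Deviations from group means of same-numbered libraries had correlations from -0.12 to 0.156. Differently numbered libraries were not compared, so whether replicate numbers pair the libraries is not decided. With the replicate block 3, 3 and 0 members were called, in the order anti-B7-H3 over IgG control, anti-PD1 over IgG control and anti-B7-H3 over anti-PD1. Over all genes, anti-B7-H3 and anti-PD1 over IgG control gave 112 and 229 calls, against 64 and 127 with the block, 395 and 659 by DESeq2, 44 and 136 with only the libraries compared and 59 to 144 and 113 to 262 with a library left out. Scaling by library totals alone moved the median of all genes to -0.069 and -0.140, and Cd68, Lyz2 and Spi1 passed there too. DESeq2 called 15 genes and limma-voom 2 for anti-B7-H3 over anti-PD1. At this depth Folr2 had at most 76 counts in a library and Lyve1 at most 9.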
